A study of Mus musculus with 24 samples.

Results

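The genes described here are 34 genes of glycolysis, the pentose phosphate pathway and lactate handling, followed through 24 bulk RNA-seq libraries of mouse T cells. They were taken by gene name from a list of these pathways that was chosen with earlier results of these data known. Aldoa has more than 1 identifier in the count table and is represented by that with the higher total count. All 34 are among the 56748 genes of the table and among the 15885 that passed the filter on low counts. The libraries came from regulatory T cells (Treg), activated CD8 T cells, Th17 cells and Th1 cells that were polarised in culture by a supplier's standard protocols, all labelled with the genotype WT. Each cell type has 6 libraries: 5 from cells given 1 agonist each of the kappa opioid receptor (KOR), a G protein-coupled receptor, and 1 from cells given the vehicle DMSO. The agonists carry the codes WMS-64, WMS-75, WMS-76, WMS-83 and WMS-200 and were used at 0.1 µM for up to 5 days. There is 1 library for each pairing of cell type and compound, so the 6 libraries of a cell type differ in compound as well as by chance, and nothing in the labels says whether libraries came from separate animals. The p-values below therefore measure the spread between these libraries, which may be technical in part.

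Glycolysis splits glucose into pyruvate in the cytosol and yields ATP and NADH on the way. Activated T cells are known for taking up much glucose through GLUT1 and for turning pyruvate into lactate even when oxygen is present, which renews NAD+ and leaves intermediates for growth. The pentose phosphate pathway branches off at glucose 6-phosphate and supplies NADPH and the ribose of nucleotides. Effector T cells are known for high glycolytic gene expression driven by Myc, HIF-1 and mTOR signalling, while Treg cells are known to depend more on mitochondrial oxidation.

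Levels are given as CPM, a count scaled to a common library size, after normalisation by TMM, which evens out differences in library composition. A gene is called changed where edgeR's quasi-likelihood test gave an adjusted p under 0.05, with adjustment over all 15885 genes. Each difference is a log2 fold change with its standard error, and a negative value means less in the first-named group. Total counts ran from 15188284 to 21946887 per library. Most markers of a labelled type were highest in that type, with exceptions. Of 5 Treg markers, Foxp3, Ikzf2, Lrrc32 and Ctla4 were highest in Treg libraries, Foxp3 with 282 CPM in Treg, against 3.73 in CD8, 33.96 in Th17 and 7.23 in Th1, while Il2ra was lowest there, at 1070 CPM, against 1894 in CD8, 1616 in Th17 and 1269 in Th1. The 5 CD8 markers were all highest in CD8, and Cd8a averaged 389 CPM there and 84.1 CPM in Th17 libraries, where the CD8 markers summed to 178 to 444 CPM. Among Th17 markers, Il17a and Il17f were highest in Th17 libraries, while Ccr6 was highest in Treg (57.1 CPM, against 31.6 in Th17) and Il23r in Th1 (5.79 CPM, against 2.56 in Th17). None of 4 Th1 markers was highest in Th1: Ifng, Tbx21 and Il12rb2 were highest in CD8, with Ifng at 1369 CPM in CD8, 5.004 in Th17 and 592 in Th1, and Cxcr3 in Treg (29.9 CPM, against 16.7 in Th1). The column names of the CD8 libraries read Tc1. Summed markers of erythroid, myeloid and stromal cells stayed at or under 3.59 CPM in every library. B cell markers summed to 7.26 to 11.8 CPM in Treg libraries, against 5.64 to 10.5 in CD8, 2.23 to 4.996 in Th17 and 2.87 to 6.61 in Th1, and 4 of the 5 were called higher in Treg than in Th17 and than in Th1. Pan-T cell markers summed to 409 to 490 CPM in Treg, 631 to 708 in CD8, 539 to 681 in Th17 and 693 to 735 in Th1 libraries, and 2 of the 3 were called lower in Treg than in each other type. The Treg libraries stood apart in composition: ribosomal protein genes took 1.60 to 2.68% of their counts, against means of 9.73% in CD8, 10.5% in Th17 and 10.9% in Th1 libraries, and mitochondrially encoded genes took 1.13% in Treg, 0.572% in CD8, 0.336% in Th17 and 0.484% in Th1 on average. The part of these differences in the results was not tested. 1 library, that of WMS-83 named Th17 in its title and library name, is Th1 in its source name, cell type label and column and was used as Th1, and Th1 markers summed to at least 943 CPM in every library used as Th1, against at most 48.6 CPM in those of Th17. Without it 26 of the 34 genes were lower in Treg than in Th1 and 26 lower in Th17 than in Th1, against 26 and 25 with it. The column names also carry a WT number that no label explains: it is 4 in all Th1 libraries and in no other, so that the number and the type cannot be told apart there.

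The promoters of 5 of these genes are printed first, 4 that hold a short motif and were lower in Treg than in CD8 cells and 1, Eno3, without it that was higher. They are examples and not a rule: Pfkm and Pfkfb3, called higher in Treg than in each other type, hold the motif, and Tpi1 and Eno1, with the 2nd and 4th largest decrease against CD8, do not. The letters ACGTG are a form of the core of the site known to bind HIF-1. Other forms of that core were not searched, so a window without ACGTG may hold one. CACGTG, which contains ACGTG, is the E-box known to bind Myc with Max. Each sequence is the stretch of 250 bases before a RefSeq gene start (RefSeq, GRCm38.p6), read 5′ to 3′ on the gene's strand, with ACGTG or its complement CACGT in capitals. The windows are chr7:46845554-46845803 (plus strand) for Ldha, chrX:106186850-106187099 (plus) for Pgk1, chr11:120948817-120949066 (plus) for Slc16a3, chr6:82774455-82774704 (minus) for Hk2 and chr11:70656926-70657175 (plus) for Eno3.
Ldha promoter: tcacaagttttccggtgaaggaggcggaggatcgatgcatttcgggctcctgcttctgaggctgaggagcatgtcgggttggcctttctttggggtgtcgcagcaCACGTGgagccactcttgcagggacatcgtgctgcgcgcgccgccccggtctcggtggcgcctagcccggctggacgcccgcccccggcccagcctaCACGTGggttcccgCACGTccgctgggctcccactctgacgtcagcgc
Pgk1 promoter: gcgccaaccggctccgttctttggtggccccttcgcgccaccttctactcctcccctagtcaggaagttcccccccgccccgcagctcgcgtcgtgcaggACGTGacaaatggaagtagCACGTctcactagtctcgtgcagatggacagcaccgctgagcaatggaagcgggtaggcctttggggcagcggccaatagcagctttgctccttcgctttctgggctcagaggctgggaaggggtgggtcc
Slc16a3 promoter: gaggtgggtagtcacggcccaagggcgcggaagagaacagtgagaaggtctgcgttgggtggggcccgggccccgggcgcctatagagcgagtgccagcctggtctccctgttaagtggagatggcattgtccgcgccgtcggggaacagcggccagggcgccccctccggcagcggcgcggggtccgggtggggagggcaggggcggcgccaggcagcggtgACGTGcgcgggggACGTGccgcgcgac
Hk2 promoter: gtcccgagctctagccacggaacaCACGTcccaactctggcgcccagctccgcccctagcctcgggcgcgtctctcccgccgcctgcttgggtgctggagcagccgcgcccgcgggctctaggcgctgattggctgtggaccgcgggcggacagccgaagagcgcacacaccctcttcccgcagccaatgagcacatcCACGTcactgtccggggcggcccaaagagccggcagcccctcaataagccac
Eno3 promoter: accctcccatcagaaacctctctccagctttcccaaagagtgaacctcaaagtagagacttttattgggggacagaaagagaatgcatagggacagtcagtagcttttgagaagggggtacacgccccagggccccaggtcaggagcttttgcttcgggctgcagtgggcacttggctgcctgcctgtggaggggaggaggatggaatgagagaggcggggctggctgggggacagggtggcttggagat

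In the Ldha window the motif begins at positions -145, -144, -48, -47 and -34 from the start. The paired positions are CACGTG, which reads the same on both strands and so counts on each. Pgk1 has the motif at -150 and -131, Slc16a3 at -27 and -14, and Hk2 at -226 and -52, while the Eno3 window has no ACGTG or CACGT. Windows were found for 32 of the 34 genes, 49 in all, since some genes have several starts, and none was found for Slc2a3 and Galm. At least 1 window held ACGTG on either strand in 11 of the 32 genes (34.4%), against 18.5% of 27025 genes with a window. These 11 are Slc2a1, Hk2, Pfkm, Aldoa, Pgk1, Pgam1, Pkm, Ldha, Slc16a1, Slc16a3 and Pfkfb3. CACGTG alone occurred in 4 of the 32 (12.5%), against 6.86% of all genes. By window, 28.6% of those of the 34 genes held ACGTG, against 16.6% of all windows. The windows of these genes were also richer in CG pairs, with a median of 14, against 6 over all windows. Among all windows with at least 14 pairs 25% held ACGTG. The 28.6% includes windows with fewer pairs and is not the like share, so the part of CG pairs in the difference was not tested. The 11 genes with the motif had a median log2 difference between Treg and CD8 cells of -2.84 (9 lower and 2, Pfkm and Pfkfb3, higher), and the 21 genes with a window but no motif one of -0.995 (17 lower, 3 higher). The same split is not given for all genes, and a relation of the motif to the decrease was not tested. A match of letters is a description of the sequence and not evidence that a factor binds there.

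Treg libraries gave the lowest level of most of these genes. Of the 34, 21 were called lower in Treg than in each of CD8, Th17 and Th1 cells, whereas 28.6% of all genes were, and 5 were called higher in Treg than in each, a pattern that also held for 28.6% of all genes. All 6 Treg libraries lay below every one of the other 18 libraries for 18 of the 34 (21.9% of all genes), and above every one of them for 4 (17.6% of all genes). Together the 34 genes took 0.357 ± 0.0293% of all counts in Treg, 1.34 ± 0.0444% in CD8, 0.721 ± 0.0279% in Th17 and 1.25 ± 0.0626% in Th1 libraries (mean ± SD, n = 6 each). Against CD8 cells 27 genes were lower and 6 higher in Treg, with 37.8% of all genes called lower and 40.2% called higher. Against Th17 cells 21 were lower and 9 higher (36.5% and 38.3% of all genes), and against Th1 cells 26 were lower and 5 higher (37.3% and 40.1%). The median log2 difference of the 34 genes was -1.26 against CD8, -0.77 against Th17 and -1.27 against Th1, while the medians of all genes were 0.08, 0.09 and 0.09. Among libraries that share the WT number 2 (4 Treg and 6 CD8, a choice made after seeing the data), all 33 genes called between Treg and CD8 kept their direction, with a median log2 difference of the 34 of -1.21. These libraries are among those that gave the calls, so the kept direction was largely fixed in advance. With a scaling that left out ribosomal protein and mitochondrial genes, 28, 21 and 26 of the genes were called lower in Treg than in CD8, Th17 and Th1. In bulk libraries, fewer cells that express a gene and less of its RNA per cell cannot be told apart.

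Among the other types, Th17 libraries were lower than CD8 and Th1 libraries for most genes: 25 of the 34 were lower in Th17 than in Th1 and 0 were higher, against 24.1% and 23.2% of all genes. 26 were higher and 4 lower in CD8 than in Th17 (24.3% and 22.8% of all genes). The 4 lower in CD8 were Pfkfb4, Pgls, Bpgm and Galm. CD8 and Th1 libraries gave the fewest calls of any pair, with 5 genes higher and 6 lower in CD8. These are 14.7% and 17.6% of the 34, against 8.69% and 7.26% of all genes. The 95% interval of the log2 difference lay within ±1 for 33 of the 34 genes and within ±0.5 for 25. 16 of the 34 genes were called lower in Treg than in each other type and also lower in Th17 than in both CD8 and Th1, so that Th17 stood between Treg and the remaining pair for these. The share of all genes with this combined pattern was not taken, so whether it is particular to these genes was not tested. For its Treg part alone the share of all genes was 28.6%. Without the Th1 library of WMS-200, 3 rather than 6 genes were lower in CD8 than in Th1.

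**Figure D1:**
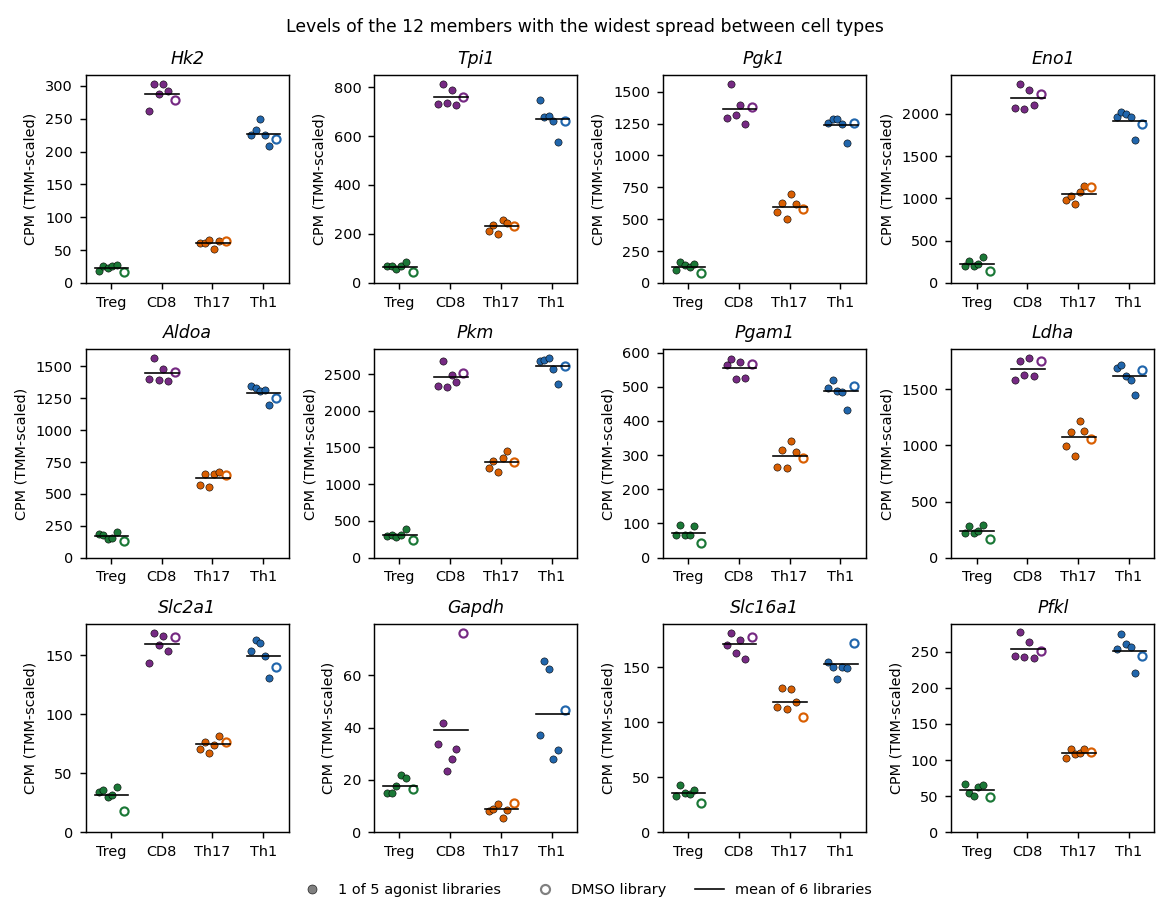
CPM after TMM scaling, on linear axes from 0, of the 12 of the 34 genes with the widest spread between cell types, with Treg, CD8, Th17 and Th1 from left to right in each panel. Filled points are the 5 agonist libraries, the open point is the DMSO library and the line is the mean of the 6. The Treg points are the lowest in every panel but that of Gapdh, where the Th17 points are.

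Glucose enters these cells through facilitative transporters. Slc2a1, which encodes GLUT1, the main glucose carrier of activated T cells, gave 18.03 to 38.6 CPM (median 33.03) in Treg, 143 to 169 CPM (median 162) in CD8, 66.999 to 82.01 CPM (median 75.4) in Th17 and 131 to 163 CPM (median 151) in Th1 libraries. The Treg libraries were all lowest and the Th17 libraries came next, while CD8 and Th1 libraries overlapped. Treg cells had 5.11-fold less than CD8 cells, and the log2 differences were -2.35 ± 0.11 against CD8, -1.25 ± 0.11 against Th17 and -2.26 ± 0.11 against Th1, with an adjusted p of 1.58e-15 against CD8. Slc2a3, which encodes the high-affinity carrier GLUT3, gave 22.2 to 39.1 CPM (median 26.7) in Treg, 97.3 to 117 CPM (median 103) in CD8, 23.6 to 27.2 CPM (median 25.3) in Th17 and 62.98 to 76.7 CPM (median 70.8) in Th1 libraries. Its Treg and Th17 libraries overlapped, and Treg differed from Th17 by 0.13 ± 0.09 (adjusted p = 0.191, not called). CD8 cells had the highest Slc2a3 level, above Th1 by 0.56 ± 0.09 (adjusted p = 3.36e-05), whereas the CD8 and Th1 difference of Slc2a1 was 0.09 ± 0.10 and not called.

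Among the 9 genes from hexokinase to triose phosphate isomerase, 7 were lower and 1 higher in Treg than in CD8, 6 lower and 3 higher than in Th17, and 6 lower and 1 higher than in Th1. The shares of all genes were 37.8% and 40.2% against CD8, 36.5% and 38.3% against Th17, and 37.3% and 40.1% against Th1. Hk2, the inducible hexokinase that traps glucose in the cell, had the largest spread of the 34 genes. It gave 16.5 to 26.8 CPM (median 23.9) in Treg, 261 to 303 CPM (median 289.5) in CD8, 52.2 to 66.1 CPM (median 62.2) in Th17 and 208 to 250.03 CPM (median 225) in Th1 libraries. None of the 4 ranges overlapped. Treg cells had 12.8-fold less Hk2 than CD8 cells, 10.1-fold less than Th1 cells and 2.72-fold less than Th17 cells (log2 -3.68 ± 0.09, -3.34 ± 0.09 and -1.45 ± 0.09; adjusted p = 2.67e-21 against CD8). Hk1, the constitutive hexokinase, differed less: it ran at 107 to 157 CPM (median 121) in Treg, 275 to 323 CPM (median 295) in CD8, 200.5 to 234 CPM (median 210.02) in Th17 and 325 to 389 CPM (median 339.6) in Th1 libraries. Its 4 ranges were separate too, and the log2 differences were -1.27 ± 0.07 against CD8, -0.80 ± 0.07 against Th17 and -1.49 ± 0.08 against Th1.

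Gpi1, the isomerase that makes fructose 6-phosphate, was at 203 to 245 CPM in Treg libraries, against 647 to 689.7 CPM in CD8, 445 to 589.8 CPM in Th17 and 609 to 655 CPM in Th1 libraries. Its log2 differences were -1.58 ± 0.06 against CD8, -1.17 ± 0.06 against Th17 and -1.49 ± 0.06 against Th1. The 3 isoforms of phosphofructokinase, which commits sugar to glycolysis, did not move together. Pfkl, the liver-type subunit, gave 48.95 to 67.3 CPM (median 58.4) in Treg, 241 to 277 CPM (median 248) in CD8, 103 to 116 CPM (median 110.2) in Th17 and 220.4 to 274 CPM (median 255) in Th1 libraries, so that Treg libraries lay below and CD8 and Th1 libraries above all others. Pfkm, the muscle-type subunit, gave 31.3 to 44.3 CPM (median 36.7) in Treg, 15.9 to 19.96 CPM (median 18.03) in CD8, 12.1 to 15.2 CPM (median 13.5) in Th17 and 19.6 to 24.8 CPM (median 22.5) in Th1 libraries, and here the Treg libraries were the highest. Its log2 differences were 1.05 ± 0.09 against CD8, 1.47 ± 0.09 against Th17 and 0.72 ± 0.09 against Th1. Pfkp, the platelet-type subunit and per length the most abundant of the 3 in Treg and Th17 libraries, gave 355 to 453 CPM (median 407) in Treg, 426 to 444 CPM (median 433) in CD8, 307 to 404 CPM (median 348) in Th17 and 375 to 441 CPM (median 416) in Th1 libraries. These ranges overlapped for all pairs but CD8 and Th17. Its differences were -0.09 against CD8, 0.22 against Th17 and -0.02 against Th1, of which that against Th17 was called (adjusted p = 0.00319) and became -0.05 (adjusted p = 0.531) once library differences in the relation of counts to gene length were taken out.

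Aldoa, the main aldolase of these cells, gave 132 to 200.3 CPM (median 169) in Treg, 1382 to 1563 CPM (median 1429) in CD8, 550.4 to 669 CPM (median 649) in Th17 and 1196 to 1346 CPM (median 1314) in Th1 libraries, with no overlap between any of the 4 types. Treg cells had 8.72-fold less than CD8 cells, and the log2 differences were -3.12 ± 0.08 against CD8, -1.91 ± 0.08 against Th17 and -2.96 ± 0.08 against Th1. Aldoc, the aldolase known from brain, was low everywhere, at 2.45 to 5.92 CPM (median 4.02) in Treg, 5.12 to 7.43 CPM (median 5.77) in CD8, 1.05 to 2.24 CPM (median 1.66) in Th17 and 3.28 to 6.73 CPM (median 5.09) in Th1 libraries. The Th17 libraries were the lowest for Aldoc, with log2 -1.65 ± 0.22 against Th1 and no overlap with another type. Tpi1, which interconverts the triose phosphates, gave 46.2 to 83.7 CPM (median 69.2) in Treg, 728 to 813 CPM (median 748) in CD8, 199 to 257 CPM (median 236) in Th17 and 576 to 747 CPM (median 670.4) in Th1 libraries. Its Treg libraries were far below the rest: the log2 differences were -3.54 ± 0.10 against CD8, -1.82 ± 0.09 against Th17 and -3.35 ± 0.10 against Th1, and the fold against CD8 was 11.6.

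The 6 genes from GAPDH to pyruvate kinase belong to the stretch of glycolysis that pays back ATP, and 4 of them (Pgk1, Pgam1, Eno1 and Pkm) are among the 8 genes with the largest decrease in Treg against CD8. Of the 6, 5 were lower and 1 higher in Treg than in CD8 and than in Th1, and 4 lower and 2 higher than in Th17. Over all genes, 37.8% were lower and 40.2% higher than in CD8, 37.3% and 40.1% than in Th1, and 36.5% and 38.3% than in Th17. Pgk1, which makes the first ATP, gave 75.7 to 163 CPM (median 131) in Treg, 1246 to 1561 CPM (median 1347) in CD8, 503 to 696 CPM (median 601) in Th17 and 1099.9 to 1283 CPM (median 1254) in Th1 libraries. All Treg libraries lay below all Th17 libraries, which lay below all CD8 and Th1 libraries. The log2 differences were -3.47 ± 0.12 against CD8, -2.27 ± 0.11 against Th17 and -3.33 ± 0.12 against Th1, a fold of 11.1 below CD8 (adjusted p = 2.18e-18). Pgam1, the phosphoglycerate mutase, gave 41.9 to 95.3 CPM (median 67.2) in Treg, 524 to 583 CPM (median 566) in CD8, 261 to 341 CPM (median 300.005) in Th17 and 431 to 520.3 CPM (median 492) in Th1 libraries, without overlap between types. Its log2 differences were -2.98 ± 0.12 against CD8, -2.07 ± 0.12 against Th17 and -2.79 ± 0.12 against Th1. Eno1, the general enolase, gave 144 to 301 CPM (median 215) in Treg, 2057 to 2354 CPM (median 2167) in CD8, 928 to 1149 CPM (median 1050.4) in Th17 and 1686 to 2024 CPM (median 1957) in Th1 libraries, again with 4 separate ranges. Its log2 differences were -3.32 ± 0.11 against CD8, -2.26 ± 0.11 against Th17 and -3.13 ± 0.11 against Th1. Pkm, which encodes the pyruvate kinases of non-hepatic tissue, gave 246 to 389 CPM (median 299) in Treg, 2328 to 2683 CPM (median 2441) in CD8, 1161 to 1455 CPM (median 1308) in Th17 and 2357 to 2713 CPM (median 2646) in Th1 libraries. Its CD8 and Th1 ranges overlapped and the Treg range lay below the Th17 range. The log2 differences were -3.02 ± 0.09 against CD8, -2.10 ± 0.08 against Th17 and -3.11 ± 0.09 against Th1.

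Eno3, the enolase known from muscle, went the other way. It gave 73.3 to 118 CPM (median 97.1) in Treg, 36.8 to 42.03 CPM (median 38.4) in CD8, 19.2 to 26.2 CPM (median 22.8) in Th17 and 21.7 to 28.9 CPM (median 25.8) in Th1 libraries. Every Treg library was above every other library, the CD8 libraries came next, and Th17 and Th1 overlapped. Treg cells had 2.51-fold the CD8 level, and the log2 differences were 1.33 ± 0.10 against CD8, 2.09 ± 0.11 against Th17 and 1.93 ± 0.11 against Th1 (adjusted p = 1.38e-14 against Th1). Per length Eno3 averaged 56.2 CPM per kilobase in Treg libraries, the 4th of the 34 genes there, close to Pgk1 at 55.6. Ldha at 71.4, Pkm at 60.8 and Aldoa at 57.2 CPM per kilobase were the genes above it.

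The row of Gapdh needs care, because 74 pseudogene copies that match it over at least 200 bases at 95% identity or more hold 62.2% of the counts of Gapdh and copies together (20186 against 12281 for Gapdh). The Gapdh row gave 14.99 to 21.7 CPM (median 17.1) in Treg, 23.4 to 75.997 CPM (median 32.8) in CD8, 5.56 to 11.1 CPM (median 8.74) in Th17 and 27.95 to 65.4 CPM (median 41.9) in Th1 libraries, with Th17 libraries lowest. On this row Treg was above Th17 by log2 1.06 ± 0.25. The sum of Gapdh and its copies, as CPM of the raw total, was 27.7 to 35.4 in Treg and 37.4 to 43.4 in Th17 libraries, so that the direction turned. Against CD8 and Th1, with sums of 85.8 to 159 and 97.4 to 123, both the row and the sum were lower in Treg. Copies held at most 1.22% of the counts of any other of the 34 genes.

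**Figure D2:**
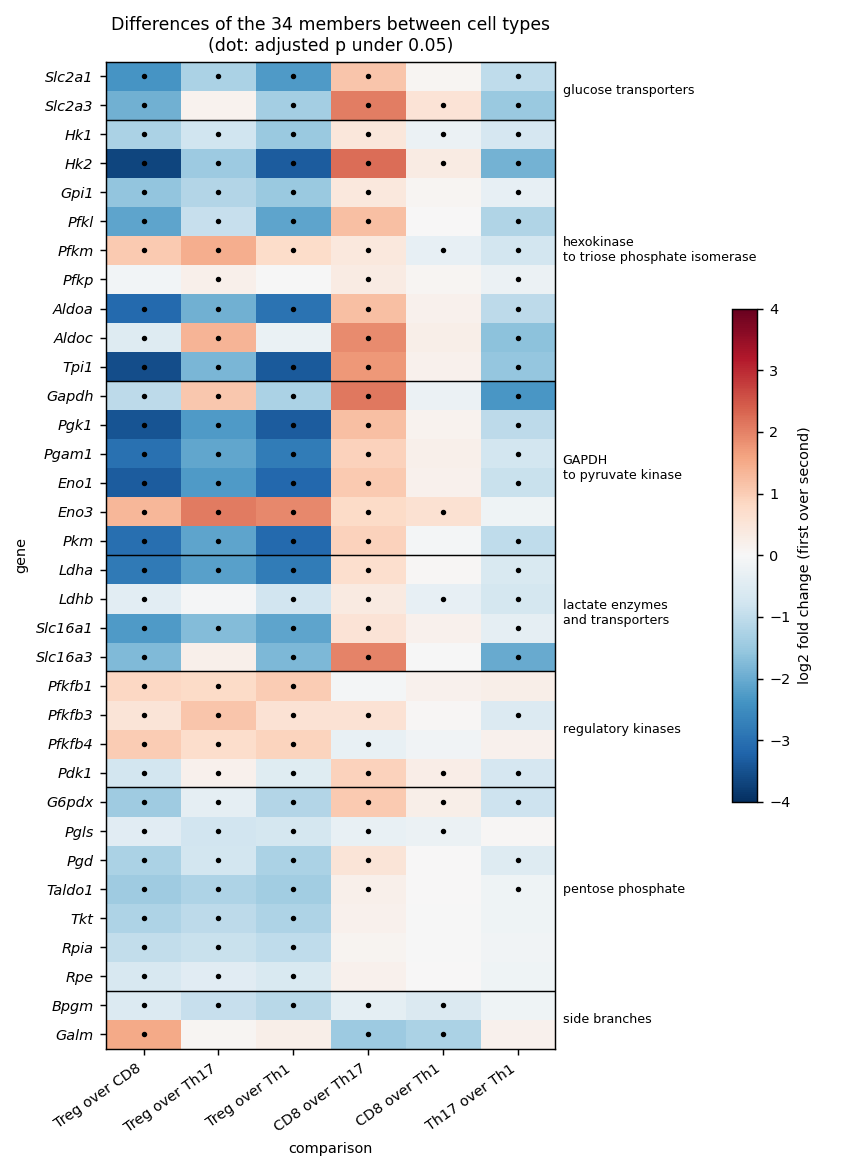
Heat map of the log2 fold change of each of the 34 genes, in rows by role, in the 6 comparisons of cell types, in columns, with the first-named type over the second, blue for lower and red for higher. A dot marks an adjusted p under 0.05. The darkest blue cells are Hk2, Tpi1 and Pgk1 in Treg over CD8, at -3.68, -3.54 and -3.47, and Eno3 is red in all 3 Treg columns, at 2.09 over Th17.

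All 4 genes of lactate formation and transport were lower in Treg than in CD8 and in Th1, and 2 of them lower than in Th17. Over all genes, 37.8% were lower than in CD8, 37.3% than in Th1 and 36.5% than in Th17. Ldha, the lactate dehydrogenase subunit that favours lactate formation, gave 167 to 289 CPM (median 231) in Treg, 1581 to 1776 CPM (median 1689.9) in CD8, 909 to 1221 CPM (median 1089) in Th17 and 1452 to 1715 CPM (median 1646) in Th1 libraries. Treg libraries were the lowest without overlap, at 7.18-fold below CD8, and CD8 and Th1 overlapped. The log2 differences were -2.84 ± 0.10 against CD8, -2.19 ± 0.09 against Th17 and -2.79 ± 0.10 against Th1 (adjusted p = 5.87e-19 against CD8). Ldhb, the subunit that favours lactate use, gave 37.99 to 49.4 CPM (median 44.7) in Treg, 56.8 to 62.5 CPM (median 59.3) in CD8, 36.9 to 51.6 CPM (median 47.3) in Th17 and 67.9 to 81.7 CPM (median 73.8) in Th1 libraries. Treg and Th17 overlapped and were not told apart (-0.06 ± 0.07), while Th1 libraries were the highest. Slc16a1, the monocarboxylate transporter MCT1, gave 26.9 to 42.9 CPM (median 35.5) in Treg, 158 to 182 CPM (median 173) in CD8, 105 to 132 CPM (median 116) in Th17 and 139.9 to 172 CPM (median 151) in Th1 libraries. It followed Ldha in order, with -2.28 against CD8, -1.74 against Th17 and -2.12 against Th1. Slc16a3, the lactate exporter MCT4, gave 22.3 to 36.96 CPM (median 32.9) in Treg, 98.5 to 111 CPM (median 105) in CD8, 24.1 to 32.3 CPM (median 26.1) in Th17 and 82.1 to 119.6 CPM (median 110.1) in Th1 libraries. Here Th17 and Treg libraries shared a low level (0.20 ± 0.11, not called) and CD8 and Th1 libraries a high one (-0.03 ± 0.10, not called). Th17 cells had 4.01-fold less Slc16a3 than Th1 cells, the largest Th17 to Th1 difference of the 34 after Gapdh (log2 -2.01 ± 0.11).

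Of the 4 regulatory kinases 3 were higher and 1 lower in Treg than in CD8 and than in Th1, and 4 were higher than in Th17. Over all genes, 40.2% were higher and 37.8% lower in Treg than in CD8, and 40.1% and 37.3% than in Th1. The share higher than in Th17 was 38.3%, and 28.6% of all genes were higher than in each type. The Pfkfb genes encode bifunctional enzymes that make and remove fructose 2,6-bisphosphate, the activator of phosphofructokinase, and Pfkfb1, Pfkfb3 and Pfkfb4 were higher in Treg than in each other type. Pfkfb3, the form with high kinase activity, gave 101.01 to 137 CPM (median 108) in Treg, 71.6 to 83.4 CPM (median 77.9) in CD8, 45.8 to 57.05 CPM (median 51.98) in Th17 and 71.97 to 78.3 CPM (median 74.6) in Th1 libraries. Treg libraries lay above all others. Its log2 differences were 0.53 ± 0.06 against CD8, 1.10 ± 0.06 against Th17 and 0.57 ± 0.06 against Th1. Pfkfb4 gave 12.1 to 20.1 CPM (median 17.03) in Treg, 7.54 to 9.68 CPM (median 8.14) in CD8, 9.43 to 11.1 CPM (median 10.3) in Th17 and 8.26 to 10.1 CPM (median 9.01) in Th1 libraries, with Treg again above all others and differences of 1.02 against CD8, 0.71 against Th17 and 0.88 against Th1. Pfkfb1, known from liver and muscle, was lower, at 7.01 to 10.3 CPM (median 9.11) in Treg, 3.92 to 7.06 CPM (median 4.42) in CD8, 4.35 to 6.21 CPM (median 5.25) in Th17 and 3.81 to 5.33 CPM (median 4.52) in Th1 libraries, and its Treg range touched the CD8 range. Its differences were 0.84 against CD8, 0.77 against Th17 and 1.01 against Th1. Pdk1, which inhibits pyruvate dehydrogenase, gave 52.3 to 70.4 CPM (median 54.7) in Treg, 92.4 to 103.7 CPM (median 95.3) in CD8, 48.2 to 55.2 CPM (median 50.02) in Th17 and 68.6 to 85.9 CPM (median 82.7) in Th1 libraries. It was lower in Treg than in CD8 (-0.75 ± 0.07) and Th1 (-0.48 ± 0.07) and higher than in Th17 by 0.18 ± 0.07.

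All 7 pentose phosphate genes were lower in Treg than in each of the other types, as were 28.6% of all genes. Log2 differences of the 7 against CD8 ran from -1.43 to -0.45. Taldo1, the transaldolase, gave 34.3 to 48.6 CPM (median 37.5) in Treg, 96.6 to 110.4 CPM (median 104.1) in CD8, 73.9 to 103 CPM (median 93.1) in Th17 and 97.1 to 109.9 CPM (median 100.8) in Th1 libraries, with -1.43 against CD8, -1.23 against Th17 and -1.40 against Th1. G6pdx, the entry enzyme that makes the first NADPH, gave 27.97 to 42.7 CPM (median 35.2) in Treg, 84.5 to 102 CPM (median 95.5) in CD8, 41.5 to 48.8 CPM (median 45.9) in Th17 and 76.5 to 85.5 CPM (median 78.9) in Th1 libraries. Treg and Th17 ranges of G6pdx overlapped slightly, and its differences were -1.42 against CD8, -0.36 against Th17 and -1.18 against Th1. Pgd, which makes the second NADPH, gave 33.6 to 49.5 CPM in Treg, 84.5 to 103 CPM in CD8, 59.3 to 76.1 CPM in Th17 and 85.9 to 98.5 CPM in Th1 libraries. Tkt, the transketolase and the most abundant gene of the branch, gave 117 to 207 CPM (median 150.2) in Treg, 348 to 377 CPM (median 356) in CD8, 280.2 to 358 CPM (median 318) in Th17 and 349.6 to 376 CPM (median 359) in Th1 libraries, with all Treg libraries below all others. Rpia, the isomerase of the pentose phosphates, gave 18.2 to 31.4 CPM in Treg, 43.8 to 57.3 CPM in CD8, 40.3 to 54.1 CPM in Th17 and 48.7 to 56.4 CPM in Th1 libraries, and differed between Treg and CD8 by -0.995 ± 0.10. Rpe, the epimerase, gave 24.6 to 35.1 CPM in Treg, 43.9 to 49.8 CPM in CD8, 34.6 to 45.7 CPM in Th17 and 42.3 to 48.5 CPM in Th1 libraries, with a difference of -0.63 ± 0.08. Pgls, the lactonase between the NADPH steps, ran at 54.4 to 86.2 CPM in Treg, 81.9 to 96.6 CPM in CD8, 105 to 122 CPM in Th17 and 102 to 115 CPM in Th1 libraries, and the smallest Treg to CD8 difference of the 7 was its -0.45 ± 0.07. G6pdx and Pgd were also lower in Th17 than in Th1, with log2 differences of -0.81 and -0.51, while Tkt, Rpia, Rpe and Pgls were not called in that comparison.

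The side branches differed from each other. Bpgm, which makes 2,3-bisphosphoglycerate, gave 11.04 to 15.7 CPM (median 14.4) in Treg, 18.3 to 23.1 CPM (median 20.3) in CD8, 21.6 to 31.2 CPM (median 27.1) in Th17 and 27.6 to 34.9 CPM (median 29.1) in Th1 libraries, with Treg below all others and -0.54 against CD8, -0.92 against Th17 and -1.11 against Th1. Galm, the mutarotase that feeds galactose into the Leloir pathway, gave 30.5 to 53.04 CPM (median 46.01) in Treg, 10.3 to 17.3 CPM (median 14.97) in CD8, 32.7 to 45.8 CPM (median 40.9) in Th17 and 31.5 to 40.4 CPM (median 34.7) in Th1 libraries. The CD8 libraries alone were low for Galm: CD8 cells had 2.71-fold less than Th17 cells and 2.43-fold less than Th1 cells (log2 -1.44 ± 0.13 and -1.28 ± 0.13), and Treg was above CD8 by 1.52 ± 0.13. This was the largest CD8 to Th1 difference of the 34 genes. The other calls between CD8 and Th1 were Slc2a3 (0.56), Eno3 (0.60), Hk2 (0.34), Pdk1 (0.27) and G6pdx (0.24), higher in CD8, and Bpgm (-0.56), Ldhb (-0.34), Pfkm (-0.32), Pgls (-0.24) and Hk1 (-0.22), lower in CD8.

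Calls of a small difference between cell types turned on single libraries in 19 pairs of gene and comparison, of which 9 lost a call and 10 gained one. Taldo1 in Th17 against Th1 lost its call without any of 13 libraries (Treg WMS-75; CD8 WMS-76, WMS-75, WMS-64, WMS-200 and DMSO; Th17 WMS-83, WMS-75 and WMS-200; Th1 WMS-75, WMS-64, WMS-200 and DMSO; adjusted p 0.0504 to 0.141), and Taldo1 in CD8 against Th17 without any of 3 libraries (Th17 WMS-83, WMS-75 and WMS-200; adjusted p 0.0525 to 0.0754). Between CD8 and Th1, Hk1 lost its call without any of 11 libraries (CD8 WMS-83, WMS-75, WMS-200 and DMSO; Th17 WMS-83 and WMS-200; Th1 WMS-76, WMS-75, WMS-64, WMS-200 and DMSO; adjusted p 0.0501 to 0.173). In the same comparison Pgls lost it without any of 8 libraries (CD8 WMS-83, WMS-76, WMS-75 and WMS-200; Th1 WMS-75, WMS-64, WMS-200 and DMSO; adjusted p 0.0524 to 0.103), G6pdx without any of 3 libraries (CD8 DMSO; Th1 WMS-83 and WMS-76; adjusted p 0.0585 to 0.0597), and Pfkm without either of 2 libraries (Th1 WMS-64 and WMS-200; adjusted p 0.0543 to 0.0591). Aldoc in Treg against CD8 lost its call without any of 5 libraries (Treg WMS-76, WMS-64, WMS-200 and DMSO; CD8 DMSO; adjusted p 0.0605 to 0.0978), Pdk1 in Treg against Th17 without either of 2 libraries (Treg DMSO; Th17 DMSO; adjusted p 0.0587 to 0.0879), and Pfkfb4 in CD8 against Th17 without any of 3 libraries (CD8 WMS-83 and WMS-76; Th17 WMS-83; adjusted p 0.0606 to 0.0623). The lost differences were at most 0.46 on the log2 scale when the call was lost, and none changed direction. The 10 that gained a call were Aldoc in Treg against Th1 (log2 -0.48 without Treg WMS-83), Galm in Treg against Th1 (0.30 to 0.35 without Th1 DMSO, Treg DMSO or Treg WMS-200), Slc2a3 (0.21 without Treg WMS-64) and Slc16a3 (0.27 to 0.28 without Treg DMSO or Treg WMS-200) in Treg against Th17, and Slc16a1 in CD8 against Th1 (0.23 without Th1 DMSO). Between CD8 and Th17 they were Rpe (0.18 to 0.22 without CD8 WMS-64, Th17 WMS-76, Th1 WMS-83 or Treg WMS-64) and Tkt (0.18 to 0.22 without CD8 WMS-83, Th17 DMSO, Treg DMSO or Treg WMS-83). Between Th17 and Th1 they were Bpgm (-0.24) and Rpe (-0.21), both without Th17 WMS-76, and Tkt (-0.23 to -0.18 without Th17 DMSO, Th1 WMS-83, Treg DMSO or Treg WMS-83).

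Shares within enzyme families do not depend on how libraries are scaled against each other, but library differences in the relation of counts to gene length can move them. Over all genes, log2 differences of Treg had a rank correlation with length of 0.12 against CD8, 0.10 against Th17 and 0.13 against Th1. Lengths differ within families, with Pfkp at 13401 and Pfkm at 3340 bases. The part of length in the shares was not tested. For each family the counts were divided by gene length and each gene's share of the family's genes among the 34 was taken per library. Isozymes outside the 34 are not counted in it, among them the glucose carriers Slc2a6, at 87.6 CPM in Treg libraries, and Slc2a8, at 16.1 CPM, and Pfkfb2, at 11.2 CPM. Of Hk1 and Hk2, Hk2 made up 20.6 ± 2.87% in Treg, 57.98 ± 1.26% in CD8, 28.8 ± 1.60% in Th17 and 48.4 ± 0.733% in Th1 (mean ± SD, n = 6 each). Of Eno1 and Eno3, Eno1 made up 42.1 ± 5.23% in Treg, 94.8 ± 0.416% in CD8, 93.6 ± 0.821% in Th17 and 96.04 ± 0.32% in Th1, so that Eno3 was the larger part in Treg and the minor one elsewhere. Of Ldha and Ldhb, Ldha took 71.3 ± 3.61% in Treg, 93.04 ± 0.367% in CD8, 91.7 ± 0.41% in Th17 and 91.1 ± 0.678% in Th1. Of the phosphofructokinases, Pfkp took 60.5 ± 2.14% in Treg, 42.8 ± 1.32% in CD8, 55.8 ± 2.65% in Th17 and 40.98 ± 2.14% in Th1. Pfkl took 17.4 ± 2.13% in Treg, 50.1 ± 1.09% in CD8, 35.5 ± 2.52% in Th17 and 50.1 ± 1.60% in Th1, and Pfkm took 22.1 ± 2.45% in Treg, 7.10 ± 0.328% in CD8, 8.63 ± 0.655% in Th17 and 8.95 ± 0.714% in Th1. Aldoa held at least 97.8% of the sum of Aldoa and Aldoc on average in every type. Of Slc16a1 and Slc16a3, Slc16a3 made up 41.7 ± 3.41% in Treg, 33.7 ± 0.87% in CD8, 15.7 ± 0.913% in Th17 and 36.7 ± 4.06% in Th1. Of Slc2a1 and Slc2a3, Slc2a3 made up 30.8 ± 10.3% in Treg, 24.1 ± 1.29% in CD8, 14.1 ± 0.969% in Th17 and 18.6 ± 0.286% in Th1, and the wide Treg spread comes with 1 library, since the share was 51.2% in the Treg DMSO library. Of Pfkfb1, Pfkfb3 and Pfkfb4, Pfkfb3 took 72.04 ± 2.44% in Treg, 77.6 ± 2.26% in CD8, 66.7 ± 2.96% in Th17 and 76.9 ± 1.30% in Th1.

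Each of 8 shares was compared between the 6 pairs of cell types by an exact two-sided permutation test over 6 against 6 libraries, which can give no p below 0.00216. The test shuffles the libraries freely and does not pair them by compound. Of the 48 tests 42 passed the threshold after adjustment over the 48. The 6 that did not were Pfkp, Aldoa, Slc16a3 and Pfkfb3 between CD8 and Th1, Ldha between Th17 and Th1 (adjusted p = 0.111), and Slc16a3 between Treg and Th1 (adjusted p = 0.0532). Every Treg share of Hk2, Eno1 and Ldha lay below every share in the other types. Without the DMSO library, the Slc2a3 share of Treg exceeded that of CD8 by 2.66 percentage points rather than 6.74, and over the agonist libraries of both types alone by 2.28 points (adjusted p = 0.161).

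Eno2, the enolase known from neurons, is not among the 34 genes but bears on the enolase shares. It averaged 180 CPM in Treg, against 35.8 in CD8, 23.8 in Th17 and 45.6 in Th1 libraries, with log2 differences of 2.33 against CD8, 2.92 against Th17 and 1.97 against Th1. With Eno2 counted, the Treg enolase pool per length was 30.3 ± 5.52% Eno1, 28.4 ± 5.07% Eno2 and 41.3 ± 2.39% Eno3. In CD8 it was 93.1 ± 0.564% Eno1, in Th17 91.4 ± 1.13% and in Th1 93.6 ± 0.596%.

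**Figure D3:**
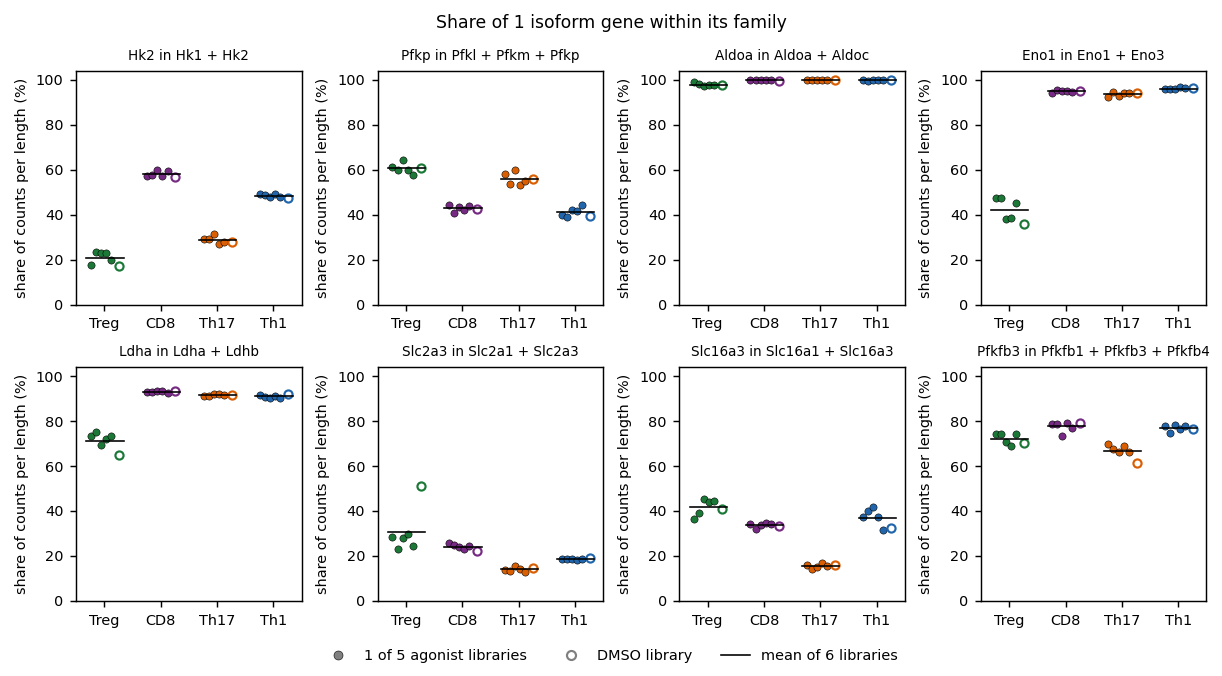
Share of 1 gene among the genes named above each of 8 panels, in percent of their counts per length, with Treg, CD8, Th17 and Th1 from left to right. Filled points are agonist libraries, the open point is the DMSO library and the line is the mean of the 6. In the enolase panel Eno1 lies at 35.8 to 47.5% in Treg libraries and at 92.4 to 94.5% in Th17 libraries.

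Further genes of the same pathways, from lists chosen for their known roles, were counted beside these. Of 36 further glycolysis and pyruvate genes that passed the filter, out of 45 listed, 19 were lower and 10 higher in Treg than in CD8 (37.8% and 40.2% of all genes), with a median log2 difference of -0.49. Against Th17 21 were lower and 12 higher (36.5% and 38.3% of all genes; median -0.40), and against Th1 18 were lower and 10 higher (37.3% and 40.1% of all genes; median -0.36). Bsg, the chaperone that carries MCT1 and MCT4 to the membrane, was at 88.97 CPM in Treg, against 420.01 in CD8, 259 in Th17 and 384 in Th1 libraries, with differences of -2.25 against CD8, -1.54 against Th17 and -2.12 against Th1. Gpd2, the mitochondrial arm of the glycerol phosphate shuttle, differed by -2.72 against CD8, -0.72 against Th17 and -2.23 against Th1, and Mdh2, the mitochondrial malate dehydrogenase, by -1.82 against CD8, -1.58 against Th17 and -1.87 against Th1. Members of the list that were higher in Treg than in each other type included isozymes and less common carriers: Slc2a6, the glucose carrier GLUT6, at 1.89 against CD8, 1.88 against Th17 and 1.98 against Th1, Pfkfb2 at 1.29 against CD8, 0.77 against Th17 and 1.25 against Th1, Pgam2, the muscle mutase, at 1.41 against CD8, 1.31 against Th17 and 1.02 against Th1, and Hk3 at 2.44 against CD8, 1.94 against Th17 and 2.95 against Th1, from a level of 2.72 CPM in Treg and under 1 CPM elsewhere. Of the 22 further pentose phosphate and sugar genes that passed out of 23, 14 were lower and 7 higher in Treg than in CD8, 11 and 6 against Th17, and 14 and 7 against Th1. Prps1, which makes phosphoribosyl pyrophosphate, was highest in Th17 libraries at 401 CPM, against 127 in Th1 (log2 1.65), unlike the 34 genes, of which 0 were higher in Th17 than in Th1.

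Of 18 tested regulators of glycolytic genes, out of 19 listed, 11 were lower and 7 higher in Treg than in CD8 (37.8% and 40.2% of all genes), 11 and 4 against Th17 (36.5% and 38.3%), and 10 and 7 against Th1 (37.3% and 40.1%), with medians of -0.55, -0.27 and -0.41. Hif1a, the oxygen-regulated subunit of HIF-1, averaged 233 CPM in Treg, 653 in CD8, 280.3 in Th17 and 637 in Th1 libraries. Its differences were -1.49 against CD8, -0.26 against Th17 and -1.45 against Th1, and Th17 lay -1.19 from Th1. Myc, a factor known to raise glycolytic genes on T cell activation, averaged 144 CPM in Treg, 440.1 in CD8, 297 in Th17 and 372 in Th1 libraries, with -1.63 against CD8, -1.06 against Th17 and -1.39 against Th1. Egln3, a prolyl hydroxylase that marks HIF for decay, was highest in Th17, at 123 CPM, and lowest in Treg, at 11.3 CPM. Mlxip, a glucose-sensing factor, and Mtor were higher in Treg than in each other type, by 1.07 against CD8, 1.24 against Th17 and 1.04 against Th1 for Mlxip and by 0.59 against CD8, 0.31 against Th17 and 0.70 against Th1 for Mtor.

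The KOR agonists were compared with DMSO first across the 4 cell types, which then stand as replicates. Of the 34 genes 0 were called, as of all 15885 genes (0%), with edgeR, and at an unadjusted p under 0.05 there were 504 genes in all and 1 of the 34, Gapdh. limma-voom called 5 genes of the table, and edgeR without the low-count filter 26, among them Gapdh. The differences of the 34 genes ran from -0.48 to 0.18 with a median of 0.04, and the 95% interval lay within ±0.5 for 32 of them.

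Single compounds were compared at the same dose and time across the cell types. Against DMSO, the 5 compounds gave 0 calls among the 34 genes and among all genes (0%) with edgeR and with DESeq2. limma-voom gave 15 calls in all and 0 among the 34, and edgeR without the low-count filter 146 and 4. At an unadjusted p under 0.05, the compounds had 246 to 1021 genes in all, and of the 34 genes WMS-64 had 3, WMS-76 had 2, WMS-83 had 1, and WMS-75 and WMS-200 had 0. Of the 170 intervals of the 34 genes 155 (91.2%) lay within ±0.5 on the log2 scale and 98.2% within ±1. Between compounds 10 pairs were compared, with 340 tests of the 34 genes and 0 calls, against 1 call among all genes (0.00063%). DESeq2, limma-voom and edgeR without the filter also gave 0 among the 34, with 8, 7 and 317 calls in all. At an unadjusted p under 0.05 the pairs had 262 to 1382 genes, and 0 to 5 of the 34. Of these 340 intervals 309 (90.9%) lay within ±0.5 and 338 (99.4%) within ±1. The test for any difference among the 5 agonists gave 0 calls as well (0% of all genes, 444 at an unadjusted p under 0.05, 0 of the 34). A p above the threshold does not show that the compounds act alike, and these intervals give the size of difference that the libraries leave room for.

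**Figure D4:**
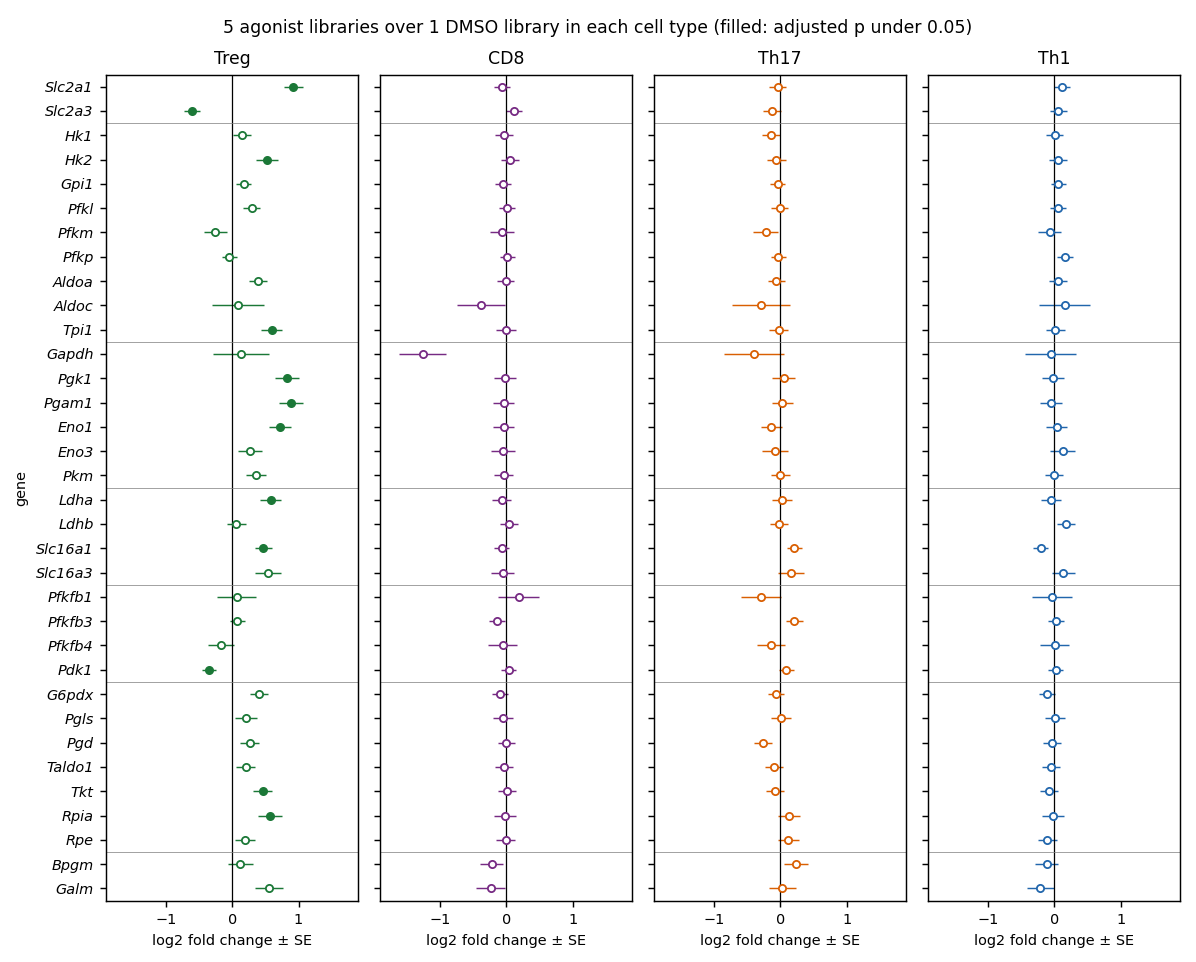
Log2 fold change of the 5 agonist libraries over the DMSO library for each of the 34 genes, in rows by role, with a panel each for Treg, CD8, Th17 and Th1 cells. Points are estimates, bars are ± 1 standard error, and filled points have an adjusted p under 0.05. Filled points appear in the Treg panel alone, 10 to the right of 0 and 2 to the left.

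Within cell types, the 5 agonist libraries were set against the single DMSO library, whose unknown spread was taken to equal that of the rest. In CD8 cells 0 of the 34 genes were called (0.0063% of all genes, 1 gene), in Th17 cells 0 (0.0378%, 6 genes) and in Th1 cells 0 (0%). At an unadjusted p under 0.05, 1 of the 34 in CD8 and 0 in Th17 and Th1 were reached, with 320, 531 and 517 genes in all. Apart from Gapdh, the differences of the 34 genes ran from -0.39 to 0.19 in CD8, from -0.29 to 0.23 in Th17 and from -0.21 to 0.18 in Th1. Gapdh differed by -1.26 in CD8, without a call: its row gave 23.4 to 41.7 CPM in the agonist libraries and 75.997 CPM in the DMSO library.

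In Treg cells 10 of the 34 genes were called higher with the agonists and 2 lower, with 7.64% of all genes called higher and 1.18% lower. At an unadjusted p under 0.05, 18 of the 34 and 3653 genes in all were reached. Slc2a1 gave 36.1, 30.1, 31.5, 38.6 and 34.5 CPM in the agonist libraries, ordered WMS-64, WMS-75, WMS-76, WMS-83 and last WMS-200, against 18.03 CPM with DMSO. All 5 agonist libraries lay above DMSO, by 0.92 ± 0.15 (adjusted p = 0.00116). Pgam1 gave 95.3, 67.1, 67.4, 91.3 and 65.97 CPM in the same order, against 41.9 CPM with DMSO. Its difference was 0.89 ± 0.18, with all 5 above DMSO. Pgk1 gave 163, 137, 125, 145 and 103 CPM, against 75.7 CPM with DMSO, and Eno1 gave 258, 195, 225, 301 and 205 CPM, against 144 CPM with DMSO. Their differences were 0.83 ± 0.18 and 0.72 ± 0.17, and again each agonist library was above DMSO.

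Tpi1, the triose phosphate isomerase, gave 70.8, 56.1, 68.5, 83.7 and 69.96 CPM with the agonists, against 46.2 CPM with DMSO (0.60 ± 0.16). Ldha, the lactate former, gave 281, 221, 241, 289 and 218 CPM, against 167 CPM (0.58 ± 0.16). Rpia (0.56 ± 0.18), Hk2 (0.52 ± 0.16), Slc16a1 (0.47 ± 0.13) and Tkt (0.46 ± 0.14) were also called, with all 5 agonist libraries above DMSO for each. Slc2a3 went the other way: it gave 22.2, 23.9, 27.7, 25.7 and 28.7 CPM with the agonists, against 39.1 CPM with DMSO, -0.61 ± 0.12. Pdk1 gave 54.7, 54.6, 54.5, 52.3 and 59.6 CPM, against 70.4 CPM with DMSO, -0.35 ± 0.11. All 5 agonist libraries lay below DMSO for both. The remaining 22 genes were not called, and 29 of the 34 differences were positive. All of them rest on the same DMSO library. The share of all genes with a positive difference is not given here, so whether the count is particular to these genes was not tested. The median over the 34 was 0.27, while that of all genes was 0.07.

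**Figure D5:**
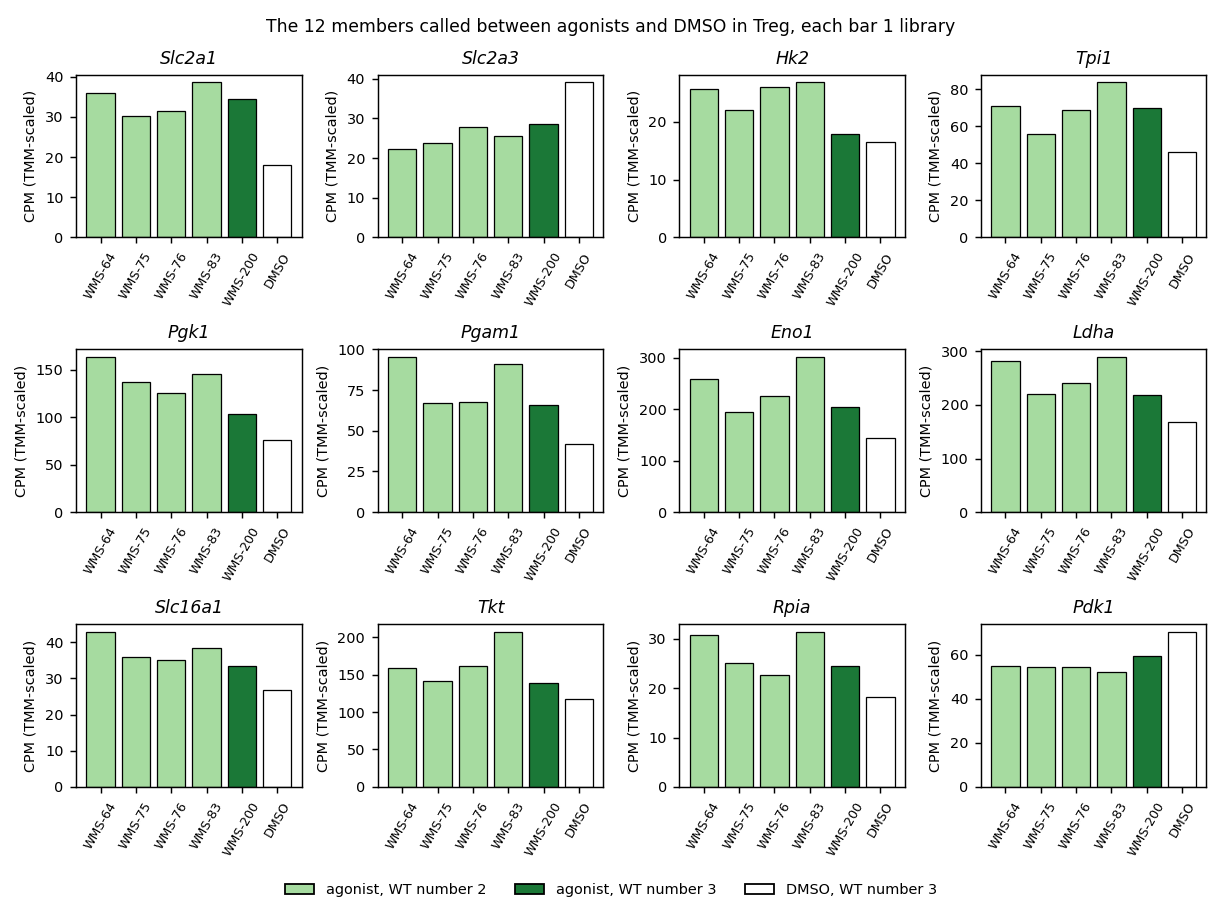
CPM after TMM scaling of the 12 called genes in the 6 Treg libraries, 1 bar per library on linear axes from 0, with the 5 agonists left of DMSO. Shades mark the WT number in the column names, pale for agonists of number 2, dark for the agonist of number 3 and white for DMSO, also number 3. The DMSO bar is the lowest of the 6 for 10 genes and the highest for Slc2a3 and Pdk1, at 39.1 and 70.4 CPM.

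These Treg values rest on 1 DMSO library. In a fit to the 6 Treg libraries alone, 0 of the 34 genes were called in either direction, and with the WT number of the column names as a block 1, Slc2a1, was called higher and 0 lower. That number is 3 for the DMSO and WMS-200 libraries of Treg and 2 for the other 4. Within number 3, WMS-200 and DMSO stand side by side without replicates, and 25 of the 34 genes were above DMSO with WMS-200. In the mean of the other 4, 28 were above DMSO. Both counts use the same DMSO library and so are not independent, and the shares of all genes are not given here. The 12 called genes had the same direction within number 3, which their choice against this DMSO library largely fixes. The median log2 difference of the 10 higher genes was 0.44 for WMS-200 and 0.61 for the mean of the other 4. With DESeq2 size factors, or with a scaling that left out ribosomal protein and mitochondrial genes, 6 rather than 10 were called higher. The loss was of Rpia, Hk2, Slc16a1 and Tkt in both cases. The DMSO library was also the lowest of the 6 in its share of ribosomal protein counts, 1.60% against 1.98 to 2.68% with the agonists, and in its total count. The part that these differences play in the result was not tested. Among marker genes in the same comparison, the Treg markers summed to 2463 to 2679 CPM in the agonist libraries and 2130.0 CPM with DMSO. That sum includes Il2ra, at 1070 CPM on average in Treg. The DMSO library was also lower in Th17 markers, at 93.6 CPM against 112 to 256. It was higher in B cell markers (11.8 CPM against 7.26 to 10.6) and erythroid markers (2.06 against 0.641 to 1.81). For the other marker lists its sum lay within the range of the agonist libraries.

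Leaving out single libraries also moved the Treg calls at the margin. Hk2 lost its call without any of 9 libraries (Treg WMS-83, WMS-76 and WMS-64; CD8 WMS-83 and WMS-76; Th17 WMS-200; Th1 WMS-76, WMS-64 and WMS-200; adjusted p 0.05001 to 0.0720). Rpia lost it without any of 11 libraries (Treg WMS-83 and WMS-64; CD8 WMS-76, WMS-75 and WMS-200; Th17 WMS-64 and WMS-200; Th1 WMS-83, WMS-76, WMS-75 and WMS-64; adjusted p 0.0507 to 0.0795), and Tkt without any of 10 libraries (Treg WMS-83 and WMS-64; CD8 WMS-83, WMS-76 and WMS-200; Th17 WMS-200; Th1 WMS-76, WMS-75, WMS-64 and WMS-200; adjusted p 0.05001 to 0.0557). Pdk1 lost it without any of 5 libraries (Treg WMS-83, WMS-76, WMS-75 and WMS-64; CD8 WMS-200; adjusted p 0.0506 to 0.0663). The direction stayed in each case. Without the Treg library of WMS-75, Aldoa was called higher (0.44), and without that library, the Treg library of WMS-200 or the Th17 library of WMS-75, G6pdx was (0.40 to 0.44). Without the Treg library of WMS-200, Galm (0.66) and Slc16a3 (0.64) were called as well, the count of all genes higher was 2074 rather than 1213, and that of genes lower 575 rather than 188. Slc16a3 was also called without the Th1 library of WMS-83 (0.54).

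Whether the agonist effect differed among the 4 cell types was tested directly. It did for 1 of the 34 genes, Slc2a1 (adjusted p = 0.0379), and for 0.176% of all genes (28), with 12 of the 34 and 2047 genes in all at an unadjusted p under 0.05. The Slc2a1 difference was 0.92 in Treg, -0.06 in CD8, -0.04 in Th17 and 0.11 in Th1 cells. For the other 33 genes a difference between cell types in the response to the agonists was not shown.

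In the further lists, the agonists in Treg gave 4 calls, all higher, among the 36 glycolysis and pyruvate genes, where 7.64% of all genes were called higher: Pgp (0.80), Adpgk (0.60), Mdh2 (0.59) and Gpd2 (0.51). There were 3 among the 22 pentose phosphate and sugar genes, Prps1 (0.76), Akr1b3 (0.67) and Galk1 (0.60). Of the 18 regulators 3 were called higher, Myc (0.82), Irf4 (0.63) and Prkaa1 (0.45), and 0 lower, while Hif1a differed by 0.10 without a call. All genes called higher in this comparison numbered 1213, against 14 with the WT number as a block and 2 in the fit to the Treg libraries alone.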

How the data were processed

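The deposited values are read counts per gene in 24 bulk RNA-seq libraries of mouse T cells (column-purified total RNA, poly(A) enrichment). Per the submitters' processing notes the authors used fastp, HISAT2 and featureCounts; the versions, the build, the annotation and the strandedness of counting are not given in any source used here. All columns found a sample among the labels, and 0 were unmatched. The members, gene lists, models and alternatives were chosen with earlier results of these data known, so the lists are no independent evidence. All 34 members are accounted for; values in full go to isozyme families, to the 12 with the largest spread between cell types and to members called against the majority, and other pathway genes are named where called.

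Genes were filtered with filterByExpr by cell type (minimum count 10). edgeR 4.0.16 in R 4.3.3 fitted robust quasi-likelihood models to all 24 libraries after TMM scaling, with Benjamini-Hochberg adjustment over all 15885 genes and a threshold of 0.05. The first model had cell type and compound (15 residual degrees of freedom, biological coefficient of variation 0.133). The second split every cell type into agonist and DMSO libraries, with 16 residual degrees of freedom and a coefficient of 0.127. Ranking by spread used log2 CPM with a prior count of 2. On simulated counts with 200 genes changed 2-fold, the test of Treg over Th1 recovered 96.5% of them with 3 false calls among 15885 genes, and that of agonists in Treg 73.0% with 12 false calls. The simulated libraries of a cell type were independent, with the same means apart from these changes and the same dispersions. For Treg over Th1 every cell type was given the Th1 means, so the other RNA composition of Treg libraries was not simulated. The false calls of that test do not cover this composition. Neither simulation held an effect of the WT number, so the false calls of both do not cover that number or the unknown spread of a lone DMSO library. Isozyme shares were compared by exact permutation tests. Alternatives were DESeq2 1.42.0, limma-voom (limma 3.58.1), other size factors, no filter, gene-length offsets, scaling without ribosomal protein and mitochondrial genes, the compared libraries alone, agonist libraries alone, the WT number as a block, and each library left out. Pseudogene copies were found with BLAST+ 2.17.0. No pair of the 276 library pairs had identical counts, and within a cell type the chi-square per degree of freedom was 4.18 to 48.7, so no library was taken as a repeat of another. Only 1435 of 52073 gene identifiers shared with GENCODE M21 have the same start and end there, so RefSeq promoter windows were joined by gene symbol alone. Tables used pandas 2.3.3 and plots matplotlib 3.10.9. The result for 1 marker gene is not reported here.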

Additional observations from a re-analysis of the deposited data

Results flagged for a closer look

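The level of each of the 34 genes was looked at within each cell type for a library far from the other 5, and 9 of 136 groups held one; chance alone flags about 1 in 20 groups. Slc2a3, the GLUT3 gene, was at 117 CPM in the CD8 library of WMS-64, with the other CD8 libraries at 97.3 to 103.8 CPM. Hk1 was at 157 CPM in the Treg library of WMS-83, with the others at 107 to 124 CPM. Taldo1 stood out in that library too, at 48.6 CPM, with the others at 34.3 to 38.5 CPM. Gapdh, whose counts are shared with pseudogenes, was at 75.997 CPM in the CD8 library of DMSO, with the others at 23.4 to 41.7 CPM. Pgk1 was at 1099.9 CPM in the Th1 library of WMS-83, below the others at 1244 to 1283 CPM, and Pdk1 was low in that library as well, at 68.6 CPM, with the others at 79.8 to 85.9 CPM. Slc16a3 was at 32.3 CPM in the Th17 library of WMS-76, with the others at 24.1 to 26.7 CPM. Pfkfb3 was at 137 CPM in the Treg library of WMS-200, with the others at 101.01 to 111 CPM. Rpe was at 49.8 CPM in the CD8 library of WMS-76, with the others at 43.9 to 45.9 CPM.

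The effect of the agonists on Slc2a1 differed among the cell types in edgeR's test of that difference (adjusted p = 0.0379). In Treg cells the 5 agonist libraries ran from 30.1 to 38.6 CPM, against 18.0 CPM with DMSO. The value rests on 1 DMSO library per cell type.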

How the results depend on the processing

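Calls of cell type differences for single genes changed little: of 204 gene and contrast pairs, 202 kept their side of the threshold and their direction with DESeq2, 202 with DESeq2 size factors in edgeR, 204 with limma-voom, 197 without the low-count filter, 194 with length offsets, 201 with scaling that left out ribosomal protein and mitochondrial genes, and 194 with the compared libraries alone. The exception in direction was Pfkp in Treg over Th17, at -0.047 (adjusted p = 0.531) with length offsets, which shifted the median of all genes by 0.11 to 0.12 in Treg over Th1 and CD8. With the compared libraries alone, CD8 over Th1 gave 11 genes higher among the 34 and 2130 higher and 1964 lower in all. For agonists over DMSO, no filter gave 1 of the 34 and 26 genes in all, and limma-voom 5 genes. In Th17 the counts were 12 (no filter), 11 (DESeq2) and 0 (compared libraries), and in Th1 5, 3 and 4. In Treg, 6 of the 34 were higher with DESeq2 size factors, 6 with scaling that left out ribosomal protein genes, 1 with the WT number as a block and 0 with the Treg libraries alone; 1 was lower without the filter, 1 with limma-voom, 0 with the block and 0 with the Treg libraries alone. All genes higher in Treg numbered 760 and 733 with the 2 scalings, 773 with limma-voom, 14 with the block and 2 with the Treg libraries alone, and genes lower 358 (DESeq2), 399 (limma-voom), 3 (block) and 1 (Treg libraries alone). The 5 compounds over DMSO gave 4 of the 34 and 146 genes without the filter and 15 with limma-voom. The 10 pairs of compounds gave 2 genes with each other scaling, 317 without the filter, 8 with DESeq2 and 7 with limma-voom. Over agonist libraries alone, the Pfkp share of Treg over Th17 was 4.59 percentage points (adjusted p = 0.0620), the Ldha share of Th17 over Th1 0.84 (0.0372) and the Slc2a3 share of Treg over CD8 2.28 (0.161). With Eno2 counted, a choice made after seeing the data, the Eno1 share of CD8 over Th1 was -0.49 points (0.183). The cause of these changes was not tested.

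Leaving out each library in turn, members lower in CD8 than Th1 numbered 3 to 6, genes called in Th1 0 to 1, members lower in Treg with agonists 1 to 2, genes higher in Treg 893 to 2074 and lower 127 to 575, and calls over compound pairs 0 to 3. Share differences ran from 1.40 to 2.51 points (Pfkp, CD8 over Th1), 0.456 to 0.800 (Ldha, Th17 over Th1), 2.66 to 8.31 (Slc2a3, Treg over CD8), -4.03 to -1.99 (Slc16a3, CD8 over Th1) and 3.95 to 6.01 (Slc16a3, Treg over Th1). The model of cell types holds compound as a term, so that libraries of 1 compound are paired across types in every contrast of cell types by that model. The permutation tests of shares do not use this pairing. The WT number as a block left the contrasts of cell types and the agonist effect in Th17, whose DMSO library is alone in its number, without a value. Without a cell type's DMSO library its agonist effect has no value. CPM by the raw total moved 60 of 136 mean levels by more than 1 SD, and CPM by DESeq2 size factors 0. Lone DMSO libraries, the unexplained WT number, counts of unknown strand setting and a Treg group with another RNA composition limit what the comparisons show.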

Other observations

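The step after glycolysis was described by fewer genes and was less uniform. Of the pyruvate dehydrogenase subunits, which link pyruvate to the mitochondria, Pdha1, Pdhb, Dlat and Dld were called lower in Treg than in each of the other types, with Pdha1 at -0.88 against CD8, -1.09 against Th17 and -1.14 against Th1. Pdhx was called in 1 of the 3 comparisons, at 0.31 against Th17. The kinases that inhibit the complex split: Pdk2 was higher in Treg by 1.10, 0.61 and 1.09, and Pdk3 was lower at -1.58, -0.95 and -1.50, in the same order. Mpc2, a subunit of the mitochondrial pyruvate carrier, was lower at -1.36, -1.36 and -1.42, while its partner Mpc1 was called lower against Th17 alone (-0.41). Me2, the mitochondrial malic enzyme, was highest in Th17 libraries, at 188 CPM, against 92.1 CPM in Th1, and averaged 52.9 CPM in Treg and 94.4 CPM in CD8 libraries.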
